A study of Mus musculus with 9 samples.

Results

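Microglia, the resident macrophages of the brain, carry in their resting state a set of surface receptors and secreted proteins known as homeostatic genes. Microglia depend on the receptor Csf1r for survival and on transforming growth factor beta for expressing many of these genes, several of which are known to be turned down when microglia react to injury or infection. The 9 genes followed here were Gpr34, P2ry12, P2ry13, Siglech, Fcrls, Tmem119, Cx3cr1, Olfml3 and Csf1r. Every probe set whose only annotated gene symbol was 1 of these names was taken, which gave 12 probe sets for 9 of the 18194 genes named on the array.

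The study injected a baculovirus vector, an insect virus used to carry genes into mammalian cells, into the striatum of immunocompetent adult male BALB/c mice, and asked how the purification of the vector affects gene expression in the brain. For the HS group the vector, BV-HSVtk, was cleaned by high-speed centrifugation only. For the MC+HS group the same vector was cleaned by membrane chromatography (MC) as well as HS. Mock mice received medium of Sf9 insect cells that held no baculovirus and had gone through the MC+HS purification. In the vector groups each side of the brain received 10 µL with 100000000 viral particles. The volume for mock mice is not given in the sample table used here. Tissue around the injection sites was taken 2 days later in all groups. There were 3 mice per group, with 1 array each, labelled as biological replicates. Since the mock medium went through the MC+HS purification, the vector and the kind of purification cannot be told apart in the comparison of HS with mock mice. All groups were injected, so mock brains carried the needle wound as well.

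The array of HS replicate 1 stood apart. Its median correlation with the other arrays was 0.757, against 0.956 to 0.979 for the other 8 arrays, and its ratio of 3′ to 5′ Gapdh signal was 2.00, against 0.865 to 0.932. The summed signal of striatal neuron markers was 6690 units on that array, the lowest of the 9, and lay between 22254 and 29536 units on the other MC+HS, HS and mock arrays. The drop was not particular to neurons. Astrocyte markers summed to 11043 units there against 41217 to 50260 on the others, and oligodendrocyte markers to 20208 against 28250 to 39928. Summed markers of monocytes, of plasmacytoid dendritic cells and of other purinergic receptors were not lowest on that array. The comparisons below are therefore given for all 9 arrays and without HS replicate 1. Values are the authors' deposited signals, a brightness in intensity units, after the arrays were centred on a common median. Differences are on the log2(signal + 16) scale with the standard error from limma, and a gene was called higher or lower where the adjusted p (Benjamini-Hochberg, over 28257 probe sets) was under 0.05. The error comes from a spread shared by all groups of a fit. Leaving out HS replicate 1 therefore changes the errors, adjusted p and calls of MC+HS against mock, but not the differences. Signals are not compared between genes, since a probe set's brightness depends on its probes.

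All 9 genes had a probe set that passed the filter on dim signals, as 11 of the 12 probe sets did. The exception was a dim second probe set of Cx3cr1, with 35.5 to 113 units in HS, 49.7 to 68.9 units in MC+HS and 51.5 to 89.6 units in mock brains. In bulk tissue, fewer microglia and less RNA per microglial cell cannot be told apart.

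The 9 genes did not move as a block. Gpr34, P2ry12, Siglech and Fcrls lay below the mock range on every array of both vector groups, while P2ry13, Tmem119, Olfml3 and Csf1r overlapped with mock in the fits of all 9 arrays. With all 9 arrays, 1 of the 11 tested probe sets was called lower in HS brains (Gpr34) and 2 were called lower in MC+HS brains (Gpr34 and P2ry12). The share of all probe sets called lower was 0.0283% in HS and 0.0248% in MC+HS brains, against 0.747% and 0.556% called higher. When HS replicate 1 was left out, the same 4 genes, Gpr34, P2ry12, Siglech and Fcrls, were called lower in both vector groups and 0 of the 11 were called higher. The background was then 0.354% of all probe sets lower and 2.94% higher in HS, and 0.828% lower and 2.49% higher in MC+HS brains. Both MC+HS calls of the 9-array fit were lost when any 1 array other than HS replicate 1 was left out, and all 4 genes were called lower in a fit of the MC+HS and mock arrays alone. That fit called 727 probe sets in either direction, against 164 with all 9 arrays. In a fit of the HS and mock arrays alone, HS replicate 1 included, 0 members were called. There 15 probe sets were called in either direction, against 219 with all 9 arrays. The share called lower was not counted separately in these fits. With all 9 arrays, 5 of the 11 member probe sets had an HS range wholly below the mock range (the 4 genes and Cx3cr1), against 10.1% of all probe sets, and 4 of 11 had such an MC+HS range, against 9.84%. The HS count was again 5 without HS replicate 1, against 13.6% of all probe sets. The comparisons of HS and MC+HS with mock share the mock arrays, so the 2 counts are not independent.

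**Figure D1:**
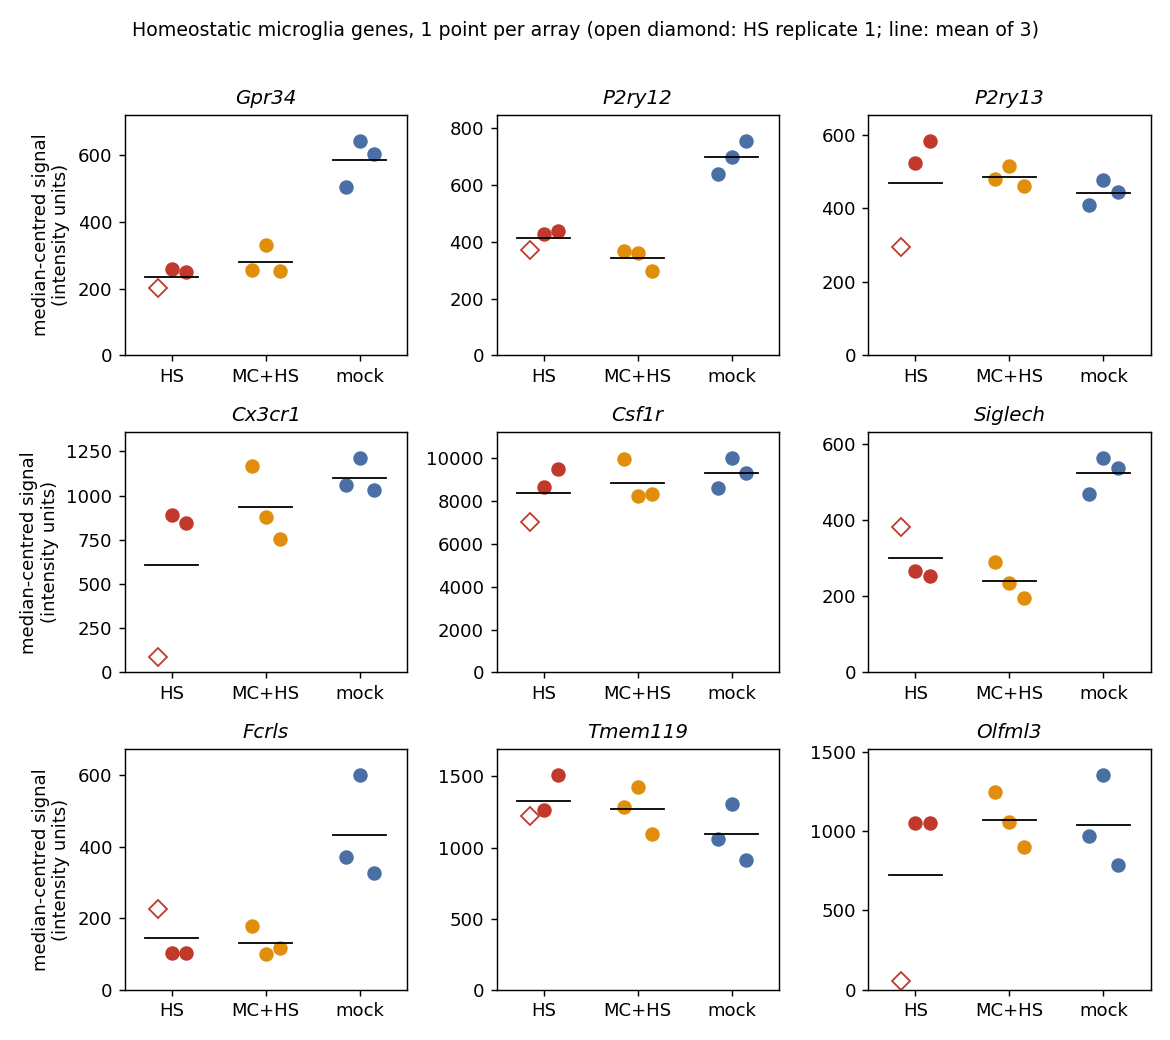
Median-centred signal in intensity units (linear axes from 0) of the probe set that stands for each of the 9 genes, with 1 point per array, HS and MC+HS left of mock, a line at the mean of 3 arrays and HS replicate 1 as an open diamond. Gpr34, P2ry12, Siglech and Fcrls lie below all mock points on every HS and MC+HS array, and the open diamonds of Cx3cr1 (89.9 units) and Olfml3 (55.6 units) lie far from the other HS points.

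Gpr34, a receptor for lysophosphatidylserine that is enriched in microglia, showed the smallest p of the members in HS against mock brains with all 9 arrays. It had 201, 258 and 249 units in HS brains and 257, 330 and 252 units in MC+HS brains, against 506, 645 and 605 units in mock brains. All 6 vector arrays were below all 3 mock arrays, HS replicate 1 with them. By limma, Gpr34 was lower by a log2 difference of -1.26 ± 0.17 (SE) in HS brains, a fold of 0.419 (adjusted p 0.0125). That call was lost on leaving out HS replicate 2 (limma, adjusted p 0.0533), HS replicate 3 (0.0593) or mock replicate 3 (0.0745), and in the fit of the HS and mock arrays alone (0.105). In MC+HS brains the log2 difference was -1.03 ± 0.17 (limma, adjusted p 0.0425). Gpr34 was also called lower when HS replicate 1 was dropped, by log2 differences of -1.15 ± 0.15 in HS (limma, adjusted p 0.00111) and -1.03 ± 0.13 in MC+HS brains (limma, adjusted p 0.00131).

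The purinergic receptors P2ry12 and P2ry13 both respond to ADP, and P2ry12 is known for steering microglial processes towards damage. P2ry12 had 370, 427 and 437 units in HS and 368, 361 and 298 units in MC+HS brains, against 638, 700.0 and 757 units in mock brains. All vector arrays were below all mock arrays. In HS brains the log2 difference was -0.74 ± 0.16, which did not pass with all 9 arrays (limma, adjusted p 0.107) and was -0.67 ± 0.13 without HS replicate 1 (limma, adjusted p 0.0141). In MC+HS brains P2ry12 was lower by a log2 difference of -0.998 ± 0.16, a fold of 0.501 (limma, adjusted p 0.0351), and the adjusted p was 0.000625 without HS replicate 1.

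P2ry13 had 295, 525 and 585 units in HS and 480.4, 517 and 462 units in MC+HS brains, against 409, 477 and 445 units in mock brains. Only HS replicate 1 lay below the mock range, and HS replicates 2 and 3 lay above it. The log2 difference was 0.02 ± 0.24 in HS (limma, adjusted p 0.965) and 0.13 ± 0.24 in MC+HS brains (limma, adjusted p 0.9999). The HS difference without HS replicate 1 was 0.31 (95% confidence interval 0.06 to 0.57; limma, adjusted p 0.234), and the MC+HS difference had an interval of -0.10 to 0.36.

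These 2 receptor genes are neighbours on mouse chromosome 3, with 0 protein-coding genes between them in RefSeq GRCm38.p6, and both lie within the span of the gene Med12l. The change of P2ry13 minus that of P2ry12, each relative to its own mock mean, was 0.32, 0.92 and 1.04 (log2) on the HS arrays and 1.01, 1.13 and 1.24 on the MC+HS arrays, against 0.01, 0.10 and -0.11 on the mock arrays. Both vector groups lay wholly above mock in this measure. The mean difference from mock was 0.76 in HS and 1.13 in MC+HS brains, each with an exact two-sided permutation p of 0.1, the smallest that 3 against 3 arrays can give. MC+HS exceeded HS by 0.37, with overlapping groups (exact two-sided permutation p 0.2). Without HS replicate 1 the differences from mock were 0.98 in HS and 1.13 in MC+HS brains (exact two-sided permutation p 0.1 each, the smallest possible), and MC+HS exceeded HS by 0.15 (exact two-sided permutation p 0.3). The measure was chosen after earlier results of these arrays were known.

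**Figure D2:**
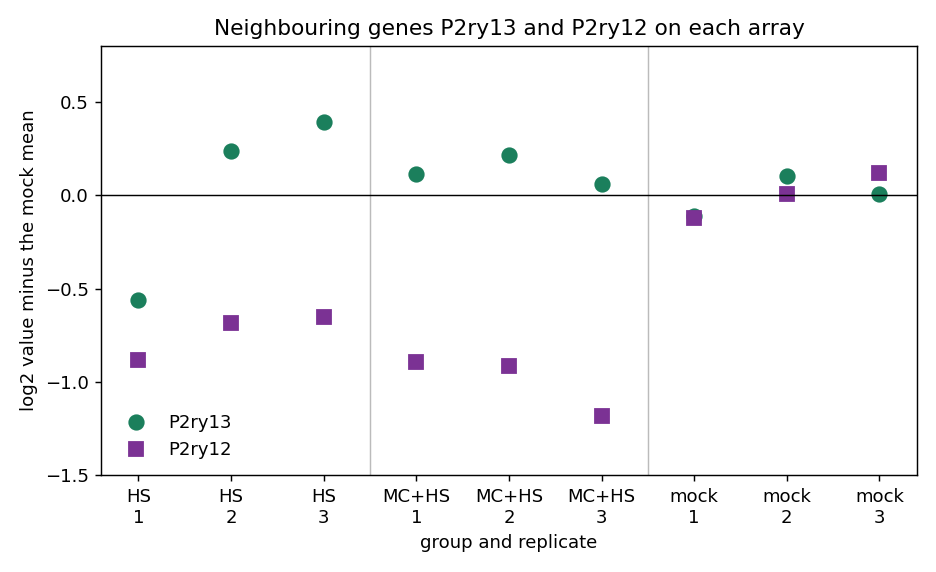
Log2 value minus the gene's own mock mean for P2ry13 (circles) and P2ry12 (squares) on each array, with HS, MC+HS and mock from left to right. P2ry12 lies between -1.18 and -0.65 on the 6 vector arrays, where P2ry13 lies between 0.06 and 0.39 on all but HS replicate 1 (-0.56).

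Siglech, a sialic acid-binding lectin that marks microglia and also plasmacytoid dendritic cells, had 381, 265 and 252 units in HS and 288, 234 and 195 units in MC+HS brains, against 468, 563 and 537 units in mock brains. All vector arrays were below all mock arrays, with HS replicate 1 the nearest to mock. The log2 difference was -0.79 ± 0.20 in HS (limma, adjusted p 0.221) and -1.09 ± 0.20 in MC+HS brains (limma, adjusted p 0.0606), neither of which passed with all 9 arrays. It was called lower in both without HS replicate 1, with a fold of 0.511 in HS (limma, adjusted p 0.00526) and 0.470 in MC+HS brains (limma, adjusted p 0.00130). Of the 8 measured markers of plasmacytoid dendritic cells, Siglech among them, Irf7 was called higher with all 9 arrays, by 2.64 ± 0.39 in HS (limma, adjusted p 0.0185) and 2.56 ± 0.39 in MC+HS brains (limma, adjusted p 0.0281). Irf7 and Bst2 are also interferon-induced genes, and both were called higher in both groups without HS replicate 1. The mock arrays were not uniform in them. Mock replicate 2 had 1145 units for Irf7, against 372 and 449 units on mock replicates 1 and 3. For Bst2 it had 2100 units, against 437 and 380 units. The other markers of that list, Tcf4, Ly6d, Klk1, Cox6a2 and Pacsin1, were not called, and Ccr9 was too dim to be measured.

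Fcrls, an Fc receptor-like scavenger receptor used as a marker of mouse microglia, had 226, 103 and 102 units in HS and 178, 99.7 and 116 units in MC+HS brains, against 370.0, 601 and 327 units in mock brains. All vector arrays were below all mock arrays. The log2 difference was -1.53 ± 0.34 in HS (limma, adjusted p 0.125) and -1.59 ± 0.34 in MC+HS brains (limma, adjusted p 0.116), and neither passed with all 9 arrays. Fcrls was called lower without HS replicate 1, with a fold of 0.274 in HS (limma, adjusted p 0.00201) and 0.331 in MC+HS brains (limma, adjusted p 0.00317). These were the lowest folds among the 9 genes in that fit.

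The promoters of P2ry12, P2ry13, Siglech and Fcrls are shown because they set 3 genes that were called lower in both vector groups without HS replicate 1 beside the neighbour that was not. Each runs from 250 bases before to 50 bases after the start of the gene, 5′ to 3′ on the gene's strand, from RefSeq GRCm38.p6. Capitals mark the letters GAGGAA read on either strand, a sequence to which the macrophage factor PU.1 (Spi1) is known to bind. Other forms of its site were not searched, so a promoter without capitals may still hold 1. P2ry12 lies at chr3:59262936-59263235 and P2ry13 at chr3:59210833-59211132, both on the minus strand. Siglech lies at chr7:55767934-55768233 on the plus strand and Fcrls at chr3:87263475-87263774 on the minus strand.
P2ry12: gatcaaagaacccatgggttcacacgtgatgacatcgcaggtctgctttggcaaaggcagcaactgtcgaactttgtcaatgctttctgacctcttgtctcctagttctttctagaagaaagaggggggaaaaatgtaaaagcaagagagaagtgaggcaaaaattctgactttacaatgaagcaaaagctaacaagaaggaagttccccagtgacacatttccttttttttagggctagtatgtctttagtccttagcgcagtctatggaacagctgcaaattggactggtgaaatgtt
P2ry13: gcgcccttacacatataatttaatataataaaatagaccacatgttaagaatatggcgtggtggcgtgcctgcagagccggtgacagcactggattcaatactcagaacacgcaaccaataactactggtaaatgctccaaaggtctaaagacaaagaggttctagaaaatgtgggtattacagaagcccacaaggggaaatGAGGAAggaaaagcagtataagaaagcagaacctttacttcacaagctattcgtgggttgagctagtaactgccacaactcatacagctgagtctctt
Siglech: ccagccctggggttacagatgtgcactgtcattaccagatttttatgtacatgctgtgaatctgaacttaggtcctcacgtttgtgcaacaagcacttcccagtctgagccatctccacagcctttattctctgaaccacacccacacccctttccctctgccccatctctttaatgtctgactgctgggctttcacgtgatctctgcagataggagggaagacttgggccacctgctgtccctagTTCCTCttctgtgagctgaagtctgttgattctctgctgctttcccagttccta
Fcrls: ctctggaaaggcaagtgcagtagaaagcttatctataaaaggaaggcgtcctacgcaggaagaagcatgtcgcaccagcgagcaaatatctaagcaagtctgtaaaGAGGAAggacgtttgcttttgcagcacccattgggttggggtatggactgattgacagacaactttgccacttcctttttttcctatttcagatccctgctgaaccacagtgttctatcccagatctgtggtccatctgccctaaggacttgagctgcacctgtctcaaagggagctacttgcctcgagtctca
The letters GAGGAA were in 3 of the 6 member promoters searched (P2ry13, Siglech and Fcrls, not P2ry12, Cx3cr1 or Olfml3), against 28.3% of 32851 RefSeq promoters of the same length. A second motif, the interferon response letters GAAANNGAA on either strand, was in 0 of the 6, against 8.56% of all promoters. The 2 motifs were searched separately, and overlaps between them were allowed. A match is a run of letters and was not tested as a binding site.

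The remaining 4 genes were called in neither direction in any comparison with mock, with or without HS replicate 1. Tmem119, a transmembrane protein used to tell microglia from other macrophages, had 1220, 1263 and 1510.4 units in HS and 1289, 1425 and 1096 units in MC+HS brains, against 1063, 1307 and 915 units in mock brains. The groups overlapped. Its log2 difference was 0.29 ± 0.23 in HS (limma, adjusted p 0.635) and 0.22 ± 0.23 in MC+HS brains (limma, adjusted p 0.9999). Leaving out HS replicate 1, the 95% intervals were -0.01 to 0.70 in HS and -0.10 to 0.54 in MC+HS brains.

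Cx3cr1, the receptor for the neuronal chemokine fractalkine, had 89.9, 889 and 842 units in HS and 1167, 877 and 756 units in MC+HS brains, against 1057, 1213 and 1029 units in mock brains. The HS arrays were all below mock, with replicate 1 far below, while the MC+HS arrays overlapped with mock. With all 9 arrays the log2 difference was -1.36 ± 0.71 in HS (limma, adjusted p 0.635) and -0.25 ± 0.71 in MC+HS brains (limma, adjusted p 0.9999). Without HS replicate 1 they were -0.34 in HS (interval -0.69 to 0.02; limma, adjusted p 0.389) and -0.25 in MC+HS brains (interval -0.57 to 0.07; limma, adjusted p 0.491).

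Olfml3, a secreted olfactomedin-like protein, had 55.6, 1053 and 1055 units in HS and 1247, 1056 and 904 units in MC+HS brains, against 969, 1355 and 788 units in mock brains. Apart from HS replicate 1, every array of both vector groups lay inside the mock range. The log2 difference in HS brains was -1.24 ± 0.90 with all 9 arrays (limma, adjusted p 0.635), and 0.06 without HS replicate 1 (interval -0.38 to 0.50; limma, adjusted p 0.932), so that its sign rested on 1 array. In MC+HS brains it was 0.07 ± 0.90 (limma, adjusted p 0.9999), an error that includes the spread of HS replicate 1. Without that array the MC+HS difference was the same, with an interval of -0.33 to 0.46.

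Csf1r, the receptor tyrosine kinase on which microglia depend for survival, was read by 3 probe sets. The brightest, which stands for the gene, had 6983, 8635 and 9482 units in HS and 9922, 8233 and 8289 units in MC+HS brains, against 8587, 9995 and 9299 units in mock brains. The groups overlapped, and its log2 difference was -0.16 ± 0.21 in HS (limma, adjusted p 0.721) and -0.08 ± 0.21 in MC+HS brains (limma, adjusted p 0.9999). The intervals without HS replicate 1 were -0.27 to 0.19 in HS and -0.28 to 0.13 in MC+HS brains, the narrowest of the 9 genes. Another probe set had 861 units on HS replicate 1, 3521 and 3660 units on the other HS arrays, and 2947 to 3939 units in MC+HS brains, against 3163 to 3857 units in mock brains. The last had 503 to 778 units in HS and 676 to 770 units in MC+HS brains, against 710 to 891 units in mock brains, and neither was called.

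**Figure D3:**
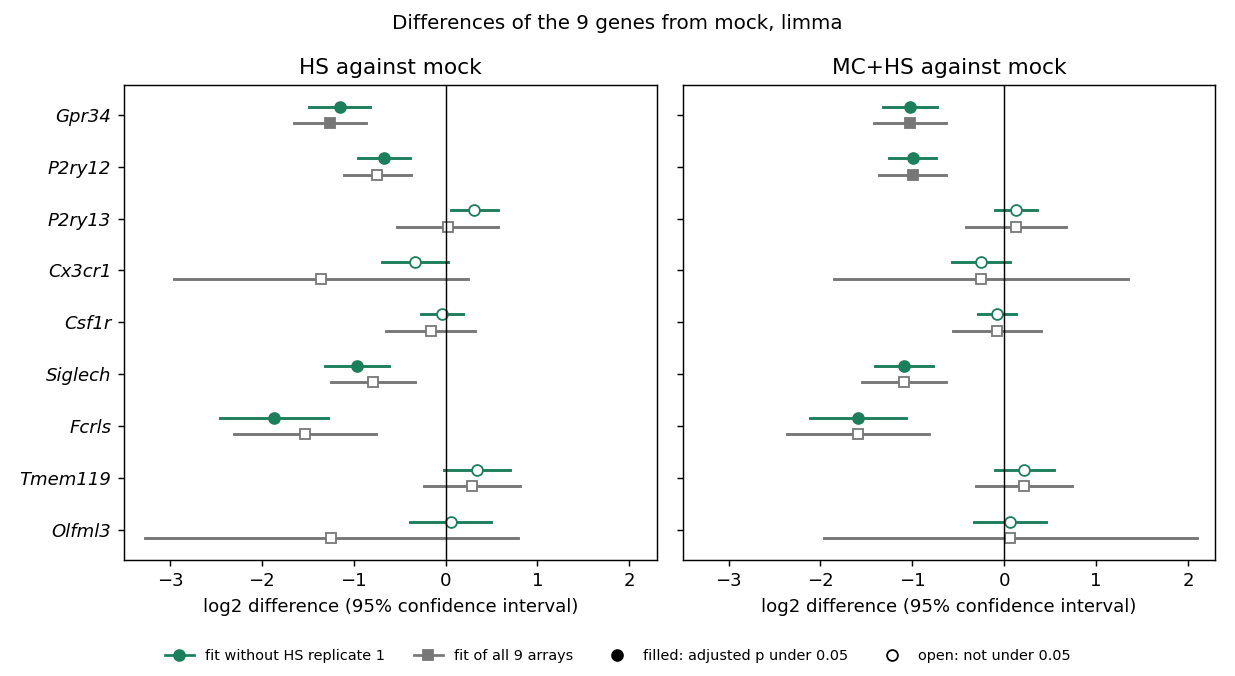
Log2 difference from mock with its 95% confidence interval for each of the 9 genes, HS on the left and MC+HS on the right, in the limma fits without HS replicate 1 (circles) and of all 9 arrays (squares), filled where the adjusted p was under 0.05. Without HS replicate 1 the filled points are those of Gpr34, P2ry12, Siglech and Fcrls in both panels, and the intervals of Cx3cr1 and Olfml3 are the widest with all 9 arrays.

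Between the 2 purifications, 0 of the 11 member probe sets were called in MC+HS against HS brains by limma, with 0 at an unadjusted 0.05, and 0% of all probe sets were called lower and 0% higher, with 847 at an unadjusted 0.05. P2ry12 was lower on all 3 MC+HS arrays than on any HS array, with a log2 difference of -0.26 (95% interval -0.62 to 0.10). It was the only 1 of the 11 member probe sets whose MC+HS range lay wholly below the HS range, against 2.88% of all probe sets, and the nearest arrays of the 2 groups, MC+HS replicate 1 and HS replicate 1, were at 367.8 units in the MC+HS and 370.4 units in the HS brain. The intervals of the others that were low in both vector groups were -0.16 to 0.62 for Gpr34, -0.76 to 0.16 for Siglech and -0.84 to 0.70 for Fcrls. Again 0 members were called without HS replicate 1, against 0% of all probe sets lower and 0.00354% higher (limma, 2150 probe sets at an unadjusted 0.05). P2ry12 was then the single member under an unadjusted 0.05, at -0.33 ± 0.13 (interval -0.61 to -0.05; limma, adjusted p 0.6004). In that fit 2 of the 11 had an MC+HS range wholly below the HS range, against 16.7% of all probe sets. The intervals leave room for differences of the size seen for P2ry12, so that a like response to both preparations was not shown.

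Over the 9 genes the median log2 difference was -0.79 in HS and -0.25 in MC+HS brains, beside -0.23 and 0.01 over all genes. It was -0.34 in HS and -0.25 in MC+HS brains without HS replicate 1, beside 0.05 and 0.01 over all genes. The mean of the 9 genes relative to mock was -1.30, -0.50 and -0.46 on the HS arrays and -0.35, -0.50 and -0.69 on the MC+HS arrays, against -0.11, 0.20 and -0.09 on the mock arrays. This mean was thus lower on every vector array than on any mock array, although it averages 4 low genes with 5 that were not called.

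Among all 13331 genes measured, those whose values over the 9 arrays lay nearest to Gpr34, each relative to its own mock mean, were Fmod, Myl4, Ccr6, Abca9 and Serpinb1a. Their mean absolute log2 distance from Gpr34 ran from 0.197 for Fmod to 0.242 for Serpinb1a. With all 9 arrays Fmod, a small proteoglycan of the extracellular matrix, was called lower in HS brains (-1.18 ± 0.20; limma, adjusted p 0.0356), as was Serpinb1a, an inhibitor of neutrophil proteases (-1.51 ± 0.23; limma, adjusted p 0.0203). Myl4, Ccr6 and Abca9 were not called in HS brains (limma, adjusted p 0.0851 to 0.137), and 0 of the 5 were called in MC+HS brains (limma, adjusted p 0.0873 to 0.517, each under an unadjusted 0.05). All 5 were called lower in both vector groups when HS replicate 1 was dropped (limma, adjusted p 0.000788 to 0.0269 in HS and 0.000600 to 0.00746 in MC+HS brains). The 5 were picked for their distance from Gpr34 on these same arrays, so low values in both vector groups followed from the choice. Their calls are therefore no independent result. P2ry12 was the gene ranked 7 by this distance, Siglech ranked 10 and Fcrls 175. The other members were far away, from rank 2946 for Cx3cr1 to 11952 for Tmem119, while P2ry13 ranked 8998. Over the 8 arrays without HS replicate 1, Ccl17 ranked 1, Siglech 2, P2ry12 7, Fcrls 222, Cx3cr1 377 and P2ry13 9801, so that the rank of Cx3cr1 depended on that array.

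The ligands of member receptors were Csf1 and Il34, which bind Csf1r, and Cx3cl1, which binds Cx3cr1. Csf1 had 674, 1154 and 1194 units in HS and 1008, 973 and 806 units in MC+HS brains, against 438, 506 and 348 units in mock brains. All vector arrays were above all mock arrays. With all 9 arrays the log2 difference was 1.17 ± 0.27 in HS (limma, adjusted p 0.133) and 1.09 ± 0.27 in MC+HS brains (limma, adjusted p 0.197). Csf1 was called higher without HS replicate 1, by 1.43 ± 0.16 in HS (limma, adjusted p 0.000413) and 1.09 ± 0.14 in MC+HS brains (limma, adjusted p 0.00123). Il34 (-0.19 in HS and -0.21 in MC+HS brains) and Cx3cl1 (-0.17 in HS and 0.00 in MC+HS brains) were not called with all 9 arrays or without HS replicate 1.

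Of 29 other microglia-enriched genes that were measured, 0 were called by limma in either vector group with all 9 arrays, against 2 in HS and 0 in MC+HS brains at an unadjusted 0.05. Their median log2 difference was -0.19 in HS and 0.09 in MC+HS brains. Without HS replicate 1, 3 were called higher in HS brains, namely the complement genes C1qa (0.63) and C1qb (0.91) and the actin regulator Abi3 (0.87). In MC+HS brains 4 were called higher, C1qa (0.59), C1qb (0.77), Abi3 (0.66) and the UDP receptor P2ry6 (0.73). In the same fit 0 of the 29 were called lower in either group (limma, 0 in HS and 2 in MC+HS brains at an unadjusted 0.05), while 4 of the 9 homeostatic genes were. Over all probe sets 2.94% were called higher and 0.354% lower in HS brains in that fit. In MC+HS brains these shares were 2.49% and 0.828%. Of 12 measured genes of the transforming growth factor beta pathway and of microglial transcription factors, 0 were called with all 9 arrays (limma, 2 in HS and 3 in MC+HS brains at an unadjusted 0.05). The receptor gene Tgfbr2 was higher without HS replicate 1, in HS (0.89; limma, adjusted p 0.00165) and MC+HS brains (0.69; limma, adjusted p 0.00480). In that fit Spi1 was higher in HS brains (0.64; limma, adjusted p 0.0261), and the partner receptor Tgfbr1 was lower in MC+HS brains (-0.48; limma, adjusted p 0.0278). Of 4 measured purinergic receptors outside the members, P2ry6 was called higher in MC+HS brains without HS replicate 1, and with all 9 arrays 0 were called (limma, 0 at an unadjusted 0.05).

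Among genes of activated or disease-associated microglia, those that were called were higher. Of 16 measured, Ccl6, a chemokine, and Ch25h, which makes an antiviral hydroxylated cholesterol, were called higher in both vector groups with all 9 arrays. Ccl6 had 555, 573 and 608 units in HS and 428, 384 and 391 units in MC+HS brains, against 131, 232 and 120 units in mock brains. Its log2 difference was 1.80 ± 0.22 in HS (limma, adjusted p 0.00807) and 1.29 ± 0.22 in MC+HS brains (limma, adjusted p 0.0447). The Ccl6 differences without HS replicate 1 were 1.83 in HS and 1.29 in MC+HS brains. In that fit 5 of the 16 were called higher in HS and 6 in MC+HS brains, and 0 were called lower. Not all of the list rose. Without HS replicate 1, 10 of the 16 had an HS range wholly above the mock range and 2 wholly below it. In MC+HS brains these counts were 9 and 1. Apoe had 7795 and 8098 units on the HS arrays of that fit, against 8504 to 8892 units in mock brains. Lpl had 1808 to 2033 units in MC+HS brains, against 2122 to 2315 units in mock brains.

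Some markers of monocytes and leukocytes were higher in the groups where the 4 members were low. Of 9 measured markers of infiltrating monocytes, Chil3 and Ccr1 were called higher in both vector groups with all 9 arrays, and 4 were in each without HS replicate 1. Over all probe sets, 0.747% in HS and 0.556% in MC+HS brains were called higher with all 9 arrays. Without HS replicate 1 these shares were 2.94% and 2.49%. Chil3, a chitinase-like protein of monocytes and neutrophils, had 191, 401 and 437 units in HS and 317, 274 and 269 units in MC+HS brains, against 29.9, 12.96 and 26.9 units in mock brains. The summed signal of the 9 ranged from 3073 to 9071 units in HS and from 7026 to 7731 units in MC+HS brains, against 2650 to 4375 units in mock brains, and the lowest HS value was that of replicate 1. The highest mock value was that of mock replicate 2, with 2650 and 2725 units on mock replicates 1 and 3. Hp and F10 of that list were dim, and Ly6c1 and Ly6c2 were not analysed here. Of 10 genes of myeloid cells in general, 0 were called with all 9 arrays (limma, 2 in each vector group at an unadjusted 0.05). Without HS replicate 1, 3 of the 10 were called higher in HS and 2 in MC+HS brains, against 2.94% and 2.49% of all probe sets. In that fit Ptprc, the pan-leukocyte marker CD45, was higher by 2.02 in HS and 1.78 in MC+HS brains, and the Fc receptor gene Fcgr3 by 0.87 in HS and 0.82 in MC+HS brains. The summed signal of the 10 ranged from 6905 to 17453 units in HS and from 14424 to 16172 units in MC+HS brains, against 9433 to 14223 units in mock brains. Here too the highest mock value was that of mock replicate 2, with 10083 and 9433 units on mock replicates 1 and 3. What part of the members' values came from such cells was not tested.

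**Figure D4:**
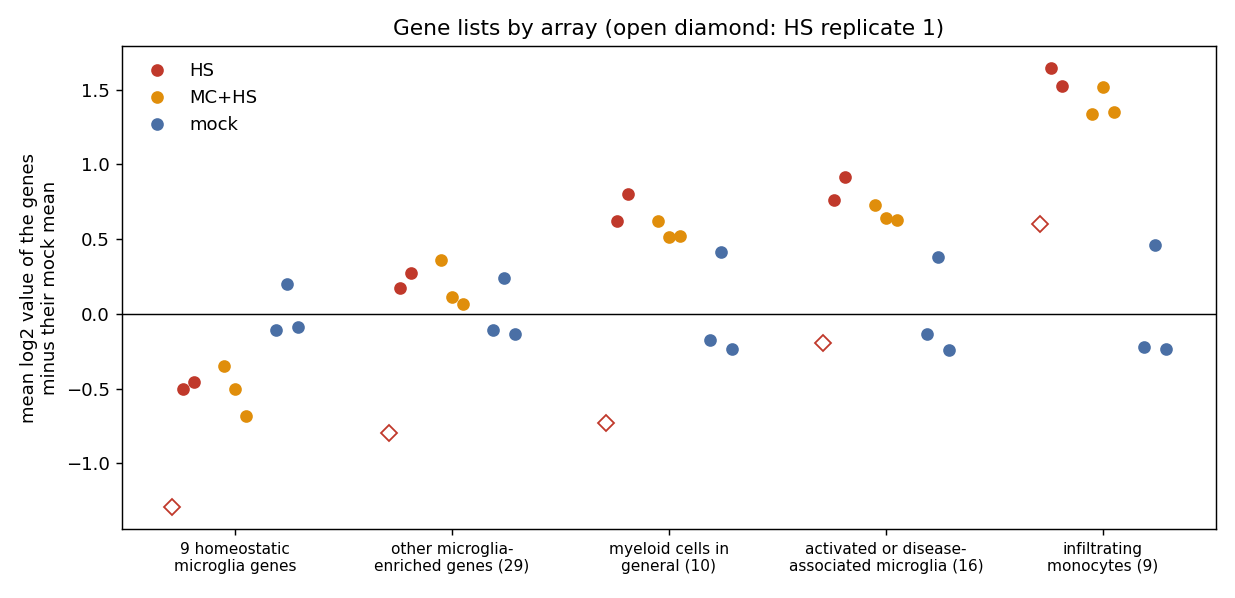
Mean log2 value of each gene list minus its mock mean, 1 point per array, HS and MC+HS left of mock, HS replicate 1 as an open diamond, for the 9 homeostatic genes, 29 other microglia-enriched genes, 10 general myeloid genes, 16 genes of activated microglia and 9 monocyte markers. The homeostatic genes lie below every mock point on all 6 vector arrays, and HS replicate 1 is the lowest point of that list at -1.30. Mock replicate 2 is the highest mock point of each list, at 0.20 for the homeostatic genes, 0.38 for activated microglia and 0.46 for monocyte markers.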

How the data were processed

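RNA of brain tissue around the injection sites was hybridised to 1 array per mouse. The deposited table holds a linear intensity for each probe set and array; the submitters' processing notes name GCOS 1.4.0.036. The summary and scaling steps are not given in the sources consulted. The platform annotation gave 1 gene symbol to 34958 of 45101 probe sets, several to 932 and none to 9211. All 12 member probe sets matched RefSeq by Entrez identifier, with 0 symbols changed.

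Signals became log2(signal + 16), and each array's median was set to a common value. Such folds understate changes of dim genes. Tests left out 64 control probe sets and those not above the 40th percentile of their array on at least 3 arrays, which left 28257 probe sets for 13331 genes. The probe set with the highest mean stood for a gene. Group means were compared in limma 3.58.1 (R 4.3.3) with an intensity trend, two-sided, 1 fit for all 9 arrays. The code was checked on simulated arrays whose spread came from the fit without HS replicate 1. That check does not cover a fit that holds an outlying array. The number of arrays limits the precision: the median 95% interval extended 0.603 (log2) to each side with all 9 arrays, and 0.326 in HS and 0.291 in MC+HS brains without HS replicate 1. P-values measure the spread between these mice. The members, the lists and the rule for naming genes (all members, called list genes up to 4 of the smallest p, and the 5 genes nearest to the member with the smallest p) were chosen with earlier results of these data known. Alternatives changed the pseudocount, filter, normalization, trend, array weights, arrays fitted, replicate block and gene summary; leaving out HS replicate 1 in the P2ry13 minus P2ry12 measure and in the likeness to Gpr34 was added after seeing the data. The array's probe coordinates were not used. Promoters came from RefSeq tables.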

Additional observations from a re-analysis of the deposited data

How the results depend on the processing

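The calls were the least stable feature. Over all probe sets, 219 were called in HS against mock as reported, 136 with a filter at the 60th percentile, 7776 with array weights (an estimate that stopped before convergence), 15 with only the 6 arrays of the groups compared, and 66 to 930 when single arrays were left out. In MC+HS against mock the counts were 164 as reported, 69 with no centring, 2146 with array weights, 727 with 6 arrays, 95 with a replicate block, and 10 to 937 leaving out single arrays. In MC+HS against HS, 0 became 6536 with array weights and 0 to 1 leaving out arrays. Member probe sets called lower in HS were 1 as reported, 0 with no centring, 5 with array weights, 0 with 6 arrays and 0 to 4 leaving out arrays, and with weights 1 member was called higher. In MC+HS against mock they were 2 as reported, 0 without a filter, 1 with quantile normalization, 0 with no centring, 1 without a trend, 4 with array weights, 4 with 6 arrays, 0 with a replicate block and 0 to 4 leaving out arrays. In MC+HS against HS, 0 became 1 with array weights. Both MC+HS calls, Gpr34 and P2ry12, were lost when any 1 array other than HS replicate 1 was left out. The HS call of Gpr34 was lost without HS replicate 2 (limma, adjusted p 0.0533), HS replicate 3 (0.0593) or mock replicate 3 (0.0745). Gpr34 was called in 16 of 21 settings in HS (adjusted p 2.11e-06 to 0.433) and 9 of 21 in MC+HS (0.000328 to 0.674), and P2ry12 in 9 of 21 in MC+HS (5.42e-05 to 0.732). The direction of a called member was reversed in 0 settings. Members not called did turn in sign. In HS against mock, Csf1r was 0.0039 with quantile normalization and 0.14 with no centring, and leaving out arrays gave -1.89 to 0.058 for Olfml3 and -0.16 to 0.31 for P2ry13. In MC+HS against mock, Olfml3 was -0.11 with array weights and -0.11 to 0.27 leaving out arrays. In MC+HS against HS, quantile normalization gave -0.075 for Csf1r and -0.088 for P2ry13, no centring gave -0.19 for Csf1r, -0.044 for Gpr34 and -0.17 for P2ry13, and array weights gave -0.030 for Csf1r, -0.043 for Cx3cr1, 0.13 for Fcrls, -0.047 for Olfml3, -0.094 for P2ry13 and 0.011 for Tmem119. Leaving out arrays there gave -0.043 to 0.18 for Csf1r, -0.28 to 0.27 for Fcrls, -0.18 to 0.29 for P2ry13 and -0.15 to 0.032 for Tmem119. The cause of these shifts was not tested. The scaling moved the median of all probe sets in HS against mock, which was -0.21 with median centring, -0.06 with quantile normalization and 0.09 with none. The labels state no pairing of the mice. Deviations of same-numbered arrays from their group means had correlations of -0.168 to 0.287. Arrays of different number were not compared in this way, so the correlations cannot decide whether a pairing exists. Without detection calls, dim signals have no bound.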

Other observations

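Without HS replicate 1, some glial and vascular markers outside the microglia were called higher beside the low homeostatic genes. Of 9 astrocyte markers, Gfap, the intermediate filament of reactive astrocytes, was higher by 1.47 ± 0.27 in HS (limma, adjusted p 0.0121) and 1.28 ± 0.24 in MC+HS brains (limma, adjusted p 0.0147), and Aldh1l1 by 0.72 in HS and 0.61 in MC+HS brains. Called higher were 4 of the 9 in HS and 2 in MC+HS brains, and 0 were called lower. At an unadjusted 0.05, 5 were higher and 1 lower in HS, and 3 were higher and 2 lower in MC+HS brains (limma). S100b had 774, 3890 and 4156 units in HS and 4314, 3897 and 3726 units in MC+HS brains, against 4655, 4805 and 5078 units in mock brains. Of 7 endothelial markers, Cldn5, a tight junction protein, was higher by 1.13 ± 0.12 in HS (limma, adjusted p 0.000347) and 0.96 ± 0.11 in MC+HS brains (limma, adjusted p 0.000547). Of 7 measured markers of border and perivascular macrophages, Cbr2 was lower, with a log2 difference of -1.40 ± 0.29, in MC+HS brains (limma, adjusted p 0.0234), with 62.6, 117 and 84.8 units in HS and 97.1, 62.0 and 77.4 units in MC+HS brains, against 144, 370 and 231 units in mock brains. The HS difference of Cbr2 was -1.10 ± 0.32 in that fit (limma, adjusted p 0.119). Stab1 of the same list went the other way and was not called. It had 355, 334 and 378 units in HS and 376, 342 and 329 units in MC+HS brains, against 270, 304 and 206 units in mock brains. With all 9 arrays, 0 markers of astrocytes, oligodendrocytes, striatal neurons, endothelium or border macrophages were called by limma in either vector group. At an unadjusted 0.05 there were 1 astrocyte and 1 endothelial gene in HS and 3 endothelial genes in MC+HS brains, all higher. Of the border macrophage genes, 1 was higher and 2 were lower in HS brains. In MC+HS brains 1 of them was higher and 3 were lower. The lists of oligodendrocytes and striatal neurons had 0.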
